A study of Mus musculus with 11 samples.

Results

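The transcription factor p53 and 9 of its best known direct target genes were followed across 3 populations of mouse alveolar macrophages (AMs). The set of 10 genes holds *Trp53*, the gene of p53 itself, and *Mdm2*, *Cdkn1a*, *Phlda3*, *Ccng1*, *Zmat3*, *Trp53inp1*, *Sesn2*, *Aen* and *Eda2r*. It was chosen by an about 2-fold lower level of *Phlda3* in RXR-deficient mature AMs, so that difference is given as a description. Of the 10 genes, 9 have a row in the deposited table of 12932 genes and *Eda2r* has none. All 9 were among the 12889 genes tested. RNA was sequenced from 9-wk-old C57BL/6J mice that all carry floxed alleles of *Rxra* and *Rxrb*, the genes of the retinoid X receptors RXRα and RXRβ, which pair with other nuclear receptors to control lipid handling and AM identity. Control mature AMs (mAMs, CD11b-/SiglecF+) came from Cre-negative *Rxrab* fl/fl littermates and gave 4 libraries. The deleted strain was Cd11c Cre+ *Rxrab* fl/fl, in which Cre is driven in cells that express CD11c, so other CD11c-expressing cells of these mice also delete the receptors. This strain gave 4 libraries of mAMs and 3 libraries of immature AMs (ImmAMs, CD11b+/SiglecF+), called RXR-deficient mAMs and RXR-deficient ImmAMs here. There were no control ImmAMs, so the deletion and the sorted population cannot be told apart between ImmAMs and control mAMs.

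In unstressed cells the E3 ubiquitin ligase *Mdm2* binds p53 and marks it for degradation, and *Mdm2* is itself switched on by p53, which closes a feedback loop. p53 that escapes this control, after DNA damage or other stress, binds DNA as a tetramer and activates genes of cell cycle arrest, apoptosis, DNA repair and metabolism. Its activity is set largely at the level of the protein, so the mRNA of *Trp53* need not follow it, and its targets are also controlled by other factors. The protein was not measured here. AMs are long-lived tissue macrophages of the airspace that renew themselves by division and clear surfactant.

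The 250 bases before the annotated starts of 4 genes are shown because these genes went in different directions below, *Phlda3* and *Ccng1* to a lower level in ImmAMs than in RXR-deficient mAMs and *Cdkn1a* to a higher one, while *Mdm2* was higher in ImmAMs than in control mAMs. They are RefSeq sequences on GRCm38.p6. The windows of 8 of the 10 genes, 10 windows in all, were used, and those of *Zmat3* and *Trp53inp1* were not analysed here. Capitals mark matches to the p53 half-site consensus, a 10-base motif that reads the same on both strands. The windows shown are chr1:135765835-135766084 on the plus strand for *Phlda3*, chr17:29090729-29090978 on the plus strand for the upstream start of *Cdkn1a*, chr10:117710759-117711008 on the minus strand for *Mdm2* and chr11:40755287-40755536 on the minus strand for *Ccng1*.
Phlda3: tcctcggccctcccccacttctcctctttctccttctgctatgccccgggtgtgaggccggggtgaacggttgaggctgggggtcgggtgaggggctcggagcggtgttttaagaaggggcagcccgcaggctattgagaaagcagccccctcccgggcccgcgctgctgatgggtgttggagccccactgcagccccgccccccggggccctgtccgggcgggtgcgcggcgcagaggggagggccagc
Cdkn1a: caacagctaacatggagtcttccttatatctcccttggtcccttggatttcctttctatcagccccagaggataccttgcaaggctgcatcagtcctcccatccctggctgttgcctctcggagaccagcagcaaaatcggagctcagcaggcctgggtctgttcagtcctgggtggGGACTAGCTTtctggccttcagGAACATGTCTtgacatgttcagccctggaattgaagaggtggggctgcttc
Mdm2: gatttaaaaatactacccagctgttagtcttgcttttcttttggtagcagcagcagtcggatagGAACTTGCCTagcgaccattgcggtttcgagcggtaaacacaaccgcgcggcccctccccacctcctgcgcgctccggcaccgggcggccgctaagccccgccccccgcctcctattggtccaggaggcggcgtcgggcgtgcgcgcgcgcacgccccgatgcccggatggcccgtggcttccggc
Ccng1: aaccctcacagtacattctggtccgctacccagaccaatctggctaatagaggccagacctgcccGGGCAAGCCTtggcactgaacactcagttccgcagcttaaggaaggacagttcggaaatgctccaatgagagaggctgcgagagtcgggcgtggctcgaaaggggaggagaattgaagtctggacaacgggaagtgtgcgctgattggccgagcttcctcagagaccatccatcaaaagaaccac
The *Phlda3* window held no match, and neither did the windows of *Sesn2* and *Eda2r* or that of the second start of *Cdkn1a*. *Cdkn1a* was the only gene among the 8 with a pair of matches at most 13 bases apart, GGACTAGCTT at 73 and GAACATGTCT at 51 bases before the start. Single matches lay in the windows of *Mdm2* (GAACTTGCCT, 186 bases before the start), *Ccng1* (GGGCAAGCCT, 185 bases), *Aen* (GGGCTTGTCC, 121 bases) and *Trp53* (GGACTTGCCC, 75 bases). Over all 32851 windows of the same length, 7.13% held a match and 0.0639% held such a pair. A match is a description of the letters and not a bound site, and p53 also binds in introns and at distant elements that these windows do not hold.

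The libraries held 16659960 to 37873532 reads on the genes of the table. The 9 genes were read well, with at least 237 reads of any of them in any library. Gene totals of *Rxra* were 310–380 CPM (reads scaled to the library size) in control mAMs, 334–419 CPM in RXR-deficient mAMs and 283–305 CPM in ImmAMs, and those of *Rxrb* were 51.4–72.1, 39.3–55.3 and 31.9–35.2 CPM. These totals sum over all exons and do not test whether the floxed part is gone. The study reports efficient deletion of both genes in mAMs and ImmAMs, from separate measurements of their mRNA. RXR-deficient mAM replicate 4 did not enter the study's own comparison of mAMs, so means and tests below use RXR-deficient mAM replicates 1 to 3. The values of replicate 4 are given for the genes of the set, for *Aen* only within a range, and for some other genes. All 11 libraries held both *Xist* (55.5–539 CPM) and the Y-linked *Ddx3y* (39.7–107 CPM), while the figure legends of the study count mice and the labels do not say how many mice gave a library. P-values therefore measure the spread between these libraries, which may be partly technical. The sorted ImmAMs had 168–174 CPM of *Itgam* (CD11b) against 3.52–3.85 CPM in control mAMs, as their gate asks, but only 19.3–19.7 CPM of *Siglecf* against 244–264 CPM. The scavenger receptor gene *Marco*, another AM marker, was at 10.9–13.8 CPM in ImmAMs against 310–377 CPM. Over 6 of 9 interstitial macrophage markers with a row, the summed level was 1860–2007 CPM in ImmAMs, 5.60–8.61 CPM in control mAMs and 29.6–85.3 CPM in RXR-deficient mAMs. Over 7 of 9 monocyte markers it was 6697–7353, 1569–2237 and 1508–2109 CPM. The 10 AM markers summed to 23591–25390 CPM in ImmAMs and 20801–27221 CPM in control mAMs, which overlap. Summed levels were also higher in ImmAMs than in control mAMs for 3 of 5 club and ciliated cell markers with a row (262–269 against 110–178 CPM), 5 of 8 neutrophil markers (51.7–61.9 against 30.7–39.5 CPM) and 2 of 6 dendritic cell markers (20.7–24.1 against 5.40–7.24 CPM). Markers of T and NK cells, alveolar type 2 cells, endothelial cells and fibroblasts had no row. The part of these other cell types in the differences between ImmAMs and mAMs was not tested.

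The order of the genes within a population was compared per kilobase of exon. In control mAMs *Phlda3* stood highest, at 67.9 ± 7.5 CPM per kb (SD, n = 4), followed by *Ccng1* at 44.8 ± 6.9, *Cdkn1a* at 25.7 ± 1.9, *Trp53* at 18.4 ± 1.3 and *Mdm2* at 11.6 ± 0.95. Their ranges did not overlap from one to the next. *Sesn2* (9.24 ± 0.84), *Trp53inp1* (5.97 ± 0.58), *Aen* (4.70 ± 0.36) and *Zmat3* (2.14 ± 0.096) made up the lower end, of which *Trp53inp1* and *Aen* overlapped. In RXR-deficient mAM replicates 1 to 3 *Ccng1* led at 57.3 ± 4.8 CPM per kb, and *Cdkn1a* (32.4 ± 4.2) and *Phlda3* (32.2 ± 0.33) could not be placed in order. In ImmAMs *Cdkn1a* and *Ccng1* stood at 45.6 ± 2.0 and 42.3 ± 4.0 CPM per kb with overlapping ranges, and *Phlda3* stood below *Trp53* and *Mdm2* at 9.95 ± 1.7 (SD, n = 3). The gene that stood highest of the 9 per kilobase in control mAMs was thus in the middle of that order in ImmAMs. The order depends on the length used, which sums all annotated exons of a gene. In CPM, *Ccng1* (158) was above *Phlda3* (106) in control mAMs, and *Phlda3* (15.5) was the lowest of the 9 in ImmAMs.

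**Figure D1:**
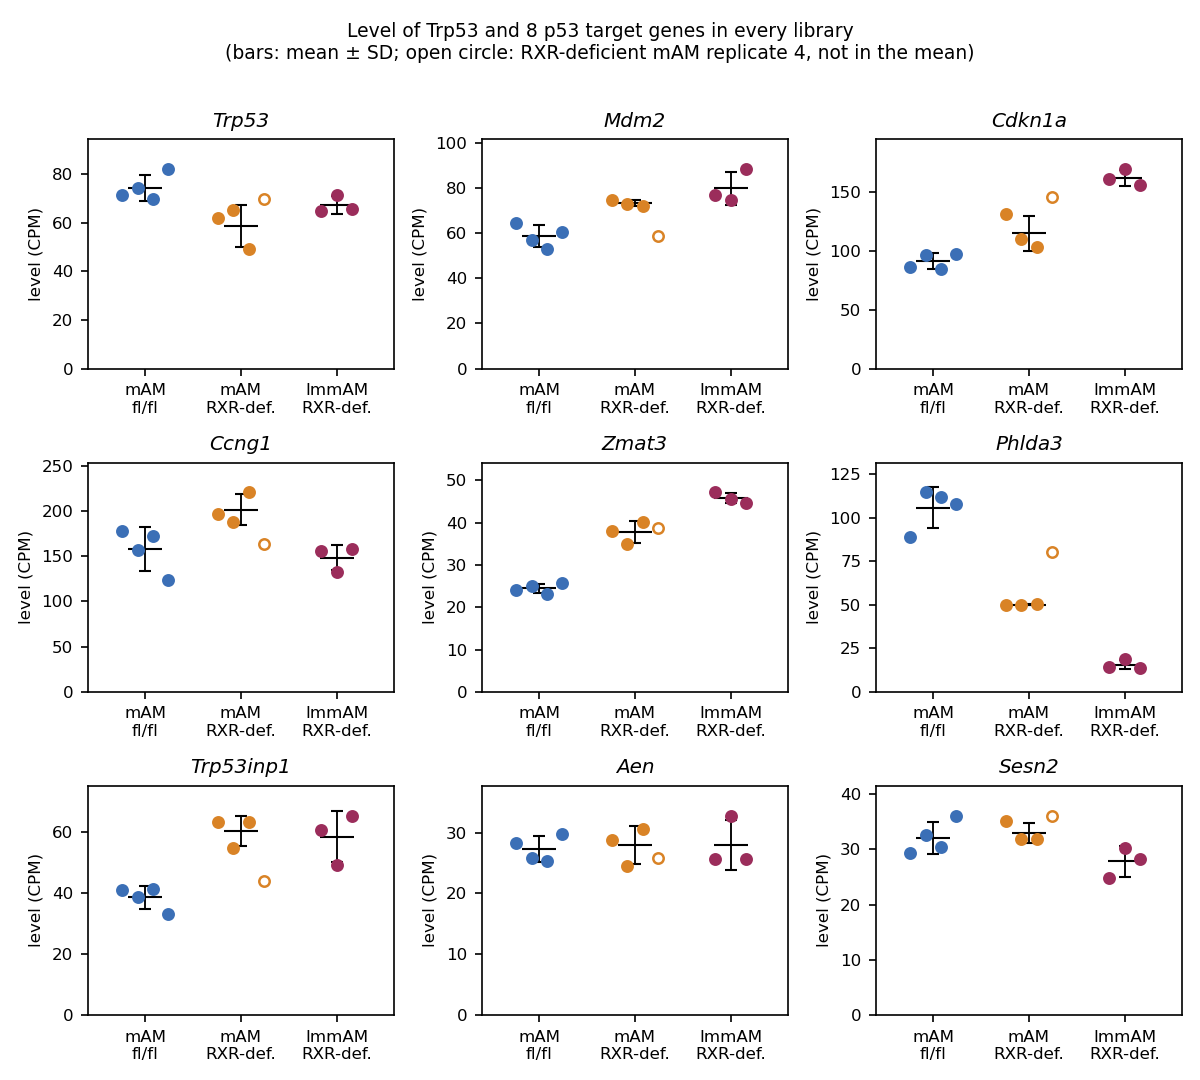
Level of each of the 9 genes in CPM (y axis, from 0) in every library of the 3 populations, with the mean and SD as bars and RXR-deficient mAM replicate 4 as an open circle that is not in the mean. Zmat3 and Cdkn1a step up from control mAMs to ImmAMs (24.5 to 45.8 and 91.3 to 162 CPM), Phlda3 steps down (106 to 15.5 CPM), and the libraries of Aen overlap in all 3 populations.

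*Trp53* mRNA was at 71.7, 74.5, 70.0 and 82.1 CPM in control mAM replicates 1 to 4. In RXR-deficient mAMs it was at 61.9, 65.4 and 49.1 CPM, and at 70.0 CPM in replicate 4. In ImmAMs it was at 64.7, 71.5 and 65.6 CPM in replicates 2 to 4. RXR-deficient mAM replicates 1 to 3 lay below every control library, by a log2 fold change of −0.35 (SE 0.0995), while replicate 4 was level with the lowest control. The difference between ImmAMs and control mAMs, −0.15 on the log2 scale (SE 0.0995), did not pass the test (limma, p-adj = 0.243), nor did that between ImmAMs and RXR-deficient mAMs, 0.20 (SE 0.106, p-adj = 0.155). *Trp53* mRNA thus passed neither test. Libraries that do not overlap, here and below, are common in these data. Of all genes tested, 24.9% lay wholly higher and 26.4% wholly lower in ImmAMs than in control mAMs. The shares were 24.8% and 26.3% for ImmAMs against RXR-deficient mAM replicates 1 to 3, and 8.92% and 11.2% for those replicates against control mAMs. Shares over all genes were not computed for separations that include replicate 4 or that hold between all populations at once.

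*Mdm2*, the inhibitor and target of p53, was at 64.3, 56.9, 53.1 and 60.7 CPM in control mAMs. It was at 74.8, 73.0 and 72.3 CPM in RXR-deficient mAM replicates 1 to 3 and at 58.7 CPM in replicate 4, which lies within the control range. ImmAMs had 76.8, 74.7 and 88.4 CPM, above every control library. *Mdm2* rose in ImmAMs against control mAMs by a log2 fold change of 0.44 (SE 0.0838, 1.36-fold, limma p-adj = 0.000745). Against RXR-deficient mAMs the difference was 0.12 (SE 0.0896) and did not pass the test (p-adj = 0.320).

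*Cdkn1a* encodes p21, the inhibitor of cyclin-dependent kinases through which p53 halts the cell cycle. Control mAMs had 86.4, 96.6, 84.5 and 97.6 CPM. RXR-deficient mAMs had 131.5, 110.3 and 103.0 CPM, and 146.1 CPM in replicate 4, which was the highest of the 4 but not apart from them. ImmAMs had 160.9, 169.4 and 155.7 CPM, so the 3 populations did not overlap. The log2 fold change in ImmAMs was 0.83 against control mAMs (SE 0.0888, 1.78-fold, p-adj = 5.98e-06) and 0.50 against RXR-deficient mAMs (SE 0.0949, 1.42-fold, p-adj = 0.00106), and both passed the test. Between RXR-deficient and control mAMs it was 0.33 (SE 0.0888). Part of the exons of *Cdkn1a*, 273 bases or 7.68%, overlaps an annotated transcript on the opposite strand, AC167363.2. The kit keeps the strand, but the strand setting of the counting is not given in the sources used here.

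*Zmat3* encodes a zinc finger protein that binds RNA and acts on splicing and stability of mRNAs. It was nearly constant within each population, at 24.0, 25.1, 23.2 and 25.6 CPM in control mAMs, 38.0, 35.0, 40.1 and, in replicate 4, 38.7 CPM in RXR-deficient mAMs, and 47.1, 45.5 and 44.7 CPM in ImmAMs. No libraries of different populations overlapped, replicate 4 included. *Zmat3* rose in ImmAMs by 0.90 on the log2 scale against control mAMs (SE 0.0812, 1.87-fold, p-adj = 1.17e-06). Against RXR-deficient mAMs it rose by 0.28 log2 units (SE 0.0868, 1.22-fold, p-adj = 0.0212). The second call was lost without ImmAM replicate 2 (p-adj = 0.0719), ImmAM replicate 3 (0.0529) or RXR-deficient mAM replicate 2 (0.0845). It was also lost with *Xist* as a covariate (0.0554) and with the replicate number as a block (0.0981). RXR-deficient mAMs stood 0.62 above control mAMs on the log2 scale (SE 0.0812, 1.54-fold).

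*Ccng1* encodes cyclin G1, which brings protein phosphatase 2A to *Mdm2*. Its highest levels were those of RXR-deficient mAM replicates 1 to 3, 196.2, 187.5 and 220.3 CPM, with 163.1 CPM in replicate 4. Control mAMs had 177.5, 157.2, 172.0 and 123.4 CPM and ImmAMs 155.2, 132.4 and 157.6 CPM, which overlap. Unlike *Cdkn1a* and *Zmat3*, *Ccng1* was lower in ImmAMs than in RXR-deficient mAMs, by a log2 fold change of −0.44 (SE 0.125, p-adj = 0.0136). This call was lost without ImmAM replicate 3 (p-adj = 0.0649) or RXR-deficient mAM replicate 3 (0.0542), and with the replicate number as a block (0.0855). Between ImmAMs and control mAMs the difference was −0.08 (SE 0.117, p-adj = 0.618), and between RXR-deficient and control mAMs it was 0.36 (SE 0.117), where replicate 4 lay within the control range.

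*Phlda3*, whose fall chose the set, encodes a small pleckstrin homology domain protein that competes with the kinase Akt for membrane lipids and so restrains it. Control mAMs had 88.9, 114.5, 112.0 and 108.0 CPM. RXR-deficient mAM replicates 1 to 3 had 49.8, 49.9 and 50.7 CPM, and replicate 4 had 80.2 CPM, closer to the lowest control than to its own group. ImmAMs had 14.2, 18.6 and 13.8 CPM. None of the 3 populations overlapped. Without a test, the log2 fold change was −1.07 in RXR-deficient mAMs against control mAMs (SE 0.115, 2.10-fold lower), and −0.90 (SE 0.154) with replicate 4. It was −2.78 in ImmAMs against control mAMs (SE 0.115, 6.86-fold lower) and −1.71 against RXR-deficient mAMs (SE 0.123, 3.26-fold lower). Since this is a bulk measurement, fewer cells with the transcript and less transcript per cell cannot be told apart, here and for the other genes. The direction was opposite to that of *Mdm2*, *Cdkn1a* and *Zmat3* in both comparisons with control mAMs.

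*Trp53inp1* and *Aen* belong to the apoptotic arm. *Trp53inp1* is a nuclear body protein that promotes phosphorylation of p53 and takes part in autophagy. It had 41.2, 38.9, 41.2 and 33.2 CPM in control mAMs, 63.3, 54.9, 63.2 and, in replicate 4, 44.0 CPM in RXR-deficient mAMs, and 60.9, 49.4 and 65.5 CPM in ImmAMs. Every deleted library was above every control library. *Trp53inp1* rose in ImmAMs against control mAMs by 0.60 on the log2 scale (SE 0.111, 1.51-fold, p-adj = 0.000687), and RXR-deficient mAMs stood 0.65 above control mAMs (SE 0.111, 1.57-fold). ImmAMs and RXR-deficient mAMs overlapped, with a difference of −0.05 (SE 0.119, p-adj = 0.763). *Aen*, a nuclease that adds to DNA fragmentation in apoptosis, did not separate the populations. Its 11 libraries lay between 24.5 and 32.8 CPM, and the log2 differences were 0.03 between ImmAMs and control mAMs (SE 0.117, p-adj = 0.844) and −0.00 between ImmAMs and RXR-deficient mAMs (SE 0.125, p-adj = 0.999).

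*Sesn2*, a leucine sensor that restrains mTORC1, stands for the metabolic targets. It had 29.4, 32.5, 30.5 and 36.0 CPM in control mAMs, 35.1, 31.9, 31.9 and, in replicate 4, 36.1 CPM in RXR-deficient mAMs, and 24.8, 30.3 and 28.3 CPM in ImmAMs. The ImmAM libraries were the lowest against RXR-deficient mAMs, without overlap. The log2 difference of −0.25 (SE 0.107) did not pass the test with 10 libraries (p-adj = 0.0853) and did so with all 11 (p-adj = 0.0429). The difference from control mAMs was −0.21 (SE 0.100, p-adj = 0.105).

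**Figure D2:**
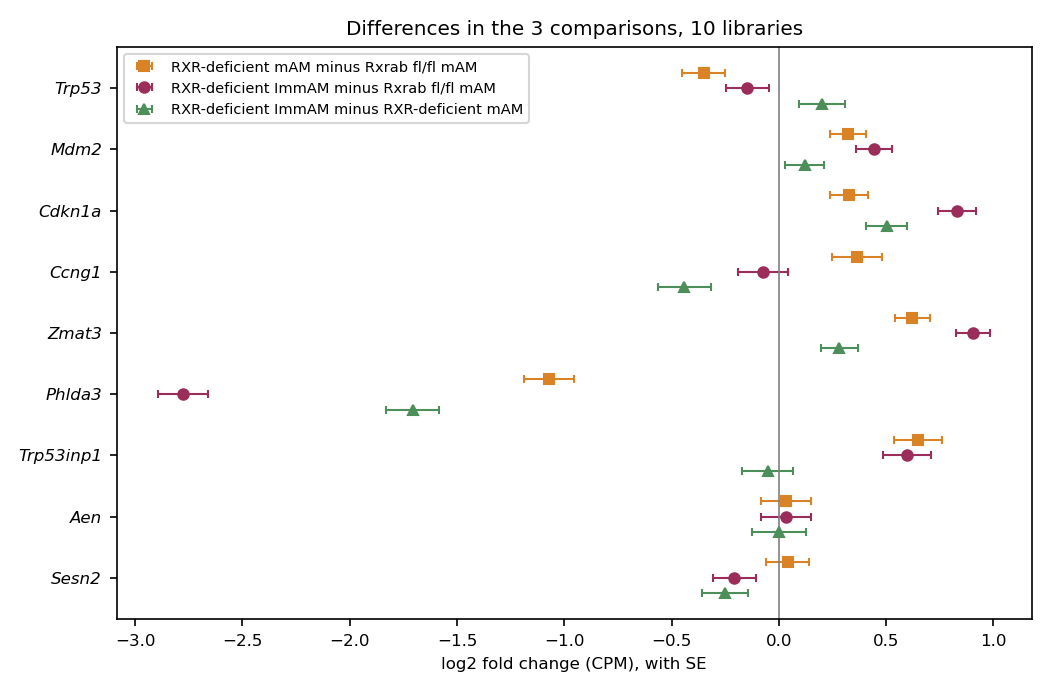
Log2 fold change of CPM (x axis) with its SE for the 9 genes in the 3 comparisons, from the fit of 10 libraries. Phlda3 lies at −1.07, −2.78 and −1.71, while Cdkn1a and Zmat3 lie above 0 in all 3 comparisons and Aen lies within 0.04 of 0 in each.

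Of the 8 genes other than *Phlda3*, 4 passed the test between ImmAMs and control mAMs, all of them higher (*Mdm2*, *Cdkn1a*, *Zmat3* and *Trp53inp1*). Of all genes tested, 48.1% were called in this comparison, 22.8% as higher and 25.3% as lower. The share of the 8 called in either direction was 50.0%, close to that background. All 4 calls were higher, but *Phlda3*, left out because it chose the set, had a log2 fold change of −2.78. The set was chosen with results of these data known, so no direction is read from this count. The 4 calls were made in each of the 14 alternative fits and in each fit with 1 library left out. The median log2 fold change of the 8 was 0.24, and that of the 9 with *Phlda3* was 0.03, against −0.00 over all genes. Between ImmAMs and RXR-deficient mAMs, 3 of the 8 passed, *Cdkn1a* and *Zmat3* as higher and *Ccng1* as lower, against 37.9% of all genes (17.7% higher, 20.2% lower). This share of 37.5% is that of the background to within 1 percentage point. The count was 4 with all 11 libraries, where *Sesn2* was added, and 1 without ImmAM replicate 3. Between RXR-deficient and control mAMs, the comparison that gave the rule, 4 of the 9 were below the threshold, 3 higher and *Phlda3* lower, beside 4.84% of all genes (2.25% higher, 2.59% lower), and nothing is read from this count. Both comparisons with control mAMs share the 4 control libraries.

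The wider p53 pathway was described by 6 lists of 104 further genes, of which 98 were tested. Between ImmAMs and control mAMs, 65 of the 98 were called, 20 higher and 45 lower, that is 66.3% beside the 48.1% of all genes. The cell cycle list holds 16 genes that p21 and the DREAM repressor complex can hold down. All 16 fell in ImmAMs, with a median log2 fold change of −3.41, against −0.00 over all genes. Whether p21 or DREAM had a part in this fall was not tested. Without the cell cycle list, 49 of 82 genes (59.8%) were called, 20 higher and 29 lower. The lists left still held genes of replication and division, such as *Gtse1*, *Ckap2* and *Pcna*. Cyclin B2 (*Ccnb2*), a partner of Cdk1 in mitosis, fell from 18.2–22.6 CPM in control mAMs to 0.566–0.656 CPM (log2 fold change −5.04, SE 0.158, p-adj = 1.05e-10). Cyclin B1 (*Ccnb1*) fell from 13.8–18.8 to 0.341–0.904 CPM, a log2 fold change of −4.83 (SE 0.279, p-adj = 2.00e-08). Cyclin A2 (*Ccna2*), which acts in the S and G2 phases, fell from 25.4–35.9 to 1.16–1.74 CPM (log2 fold change −4.44, SE 0.176, p-adj = 7.51e-10). With 1 CPM added before log2 the 3 changes were −3.72, −3.38 and −3.71, and each was still called. *Ccnb2* (9 to 13 reads) and *Ccnb1* (6 to 19 reads) were below 1 CPM in every ImmAM library. Both thus passed the filter only through the mAMs, where they are high, and their calls are a description. In RXR-deficient mAM replicates 1 to 3, *Ccnb2*, *Ccnb1* and *Ccna2* stood at 15.4–19.99, 12.5–16.8 and 21.8–28.2 CPM. Replicate 4 had 25.1, 13.2 and 26.6 CPM, of which that of *Ccnb2* was above every control library. The cell cycle list was called lower in 15 of 16 genes between ImmAMs and RXR-deficient mAMs too, with a median of −3.11.

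Among 24 regulators of p53, 7 rose and 6 fell in ImmAMs against control mAMs (54.2% called, beside 48.1% of all genes), with a median of −0.06. *Cdkn2a*, which encodes p16INK4a and the *Mdm2* inhibitor p19ARF from different reading frames, rose from 0.409–0.769 to 6.80–7.38 CPM (log2 fold change 3.50, SE 0.358, p-adj = 3.95e-06). With 1 CPM added the change was 2.30. *Cdkn2a* had only 13 to 20 reads in the control libraries, below 1 CPM in each. It thus passed the filter only through the RXR-deficient groups, where it is high, and its calls are a description. The gene level does not tell the 2 products apart. *Rpl11*, a ribosomal protein that can bind *Mdm2*, rose by 0.96 log2 units (SE 0.210, p-adj = 0.00214), and the checkpoint kinase gene *Chek2* fell by 1.14 log2 units (SE 0.182, p-adj = 0.000205). The list of 13 other targets of cell cycle arrest also holds the cell division genes *Gtse1* and *Ckap2*. It split into 2 higher and 8 lower (76.9% called, beside 48.1% of all genes). Its median was −0.36. *Gadd45a*, a growth arrest and DNA damage gene, rose from 1.22–3.55 to 8.01–11.9 CPM (log2 fold change 1.94, SE 0.344, p-adj = 0.000463). *Gtse1*, a G2 and S phase protein that holds p53 in the cytoplasm, fell by 1.96 log2 units (SE 0.247, p-adj = 2.67e-05). *Ckap2*, a mitotic spindle protein, fell from 5.33–10.1 CPM to 0.814 CPM or less. It thus passed the filter only through the mAMs, where it is high, and its call is a description. It had 0 reads in ImmAM replicate 2, where 3 reads are the limit that such a count allows. Its log2 fold change of −4.98 (SE 0.836, p-adj = 0.000301) was −3.49 without that library, −5.57 without ImmAM replicate 3, −5.87 without ImmAM replicate 4, −4.07 in edgeR, and −3.14 or −2.57 with 0.5 or 1 CPM added.

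Among 17 apoptotic targets, 3 rose and 7 fell in ImmAMs against control mAMs (58.8% called), with a median of 0.01. Of all genes, 48.1% were called, 22.8% as higher and 25.3% as lower. *Bid*, a BH3-only protein that links death receptors to mitochondria, rose from 7.10–11.1 to 22.5–25.95 CPM (log2 fold change 1.40, SE 0.191, p-adj = 5.38e-05). *Perp*, a membrane protein of cell adhesion and p53-dependent death, fell from 175–199 to 55.5–75.2 CPM (log2 fold change −1.52, SE 0.101, p-adj = 6.94e-08), and *Trp53i11* fell by 1.24 log2 units (SE 0.172, p-adj = 6.10e-05). In the list of 11 DNA repair and nucleotide genes, 3 rose and 2 fell (45.5% called, beside 48.1% of all genes, median 0.07). *Pcna*, the sliding clamp of DNA replication, fell by 0.83 on the log2 scale (SE 0.0788, p-adj = 2.01e-06), and the translesion polymerase gene *Polh* fell by 0.77 log2 units (SE 0.122, p-adj = 0.000191). The nucleotide excision repair gene *Xpc* rose by 0.50 log2 units (SE 0.0992, p-adj = 0.00105). Of 17 targets in metabolism, antioxidant defence and autophagy, 5 rose and 6 fell (64.7% called, beside 48.1% of all genes, median −0.14). *Ephx1*, the microsomal epoxide hydrolase, rose from 8.62–14.9 to 98.8–102 CPM (log2 fold change 3.09, SE 0.159, p-adj = 7.50e-09), the semaphorin receptor gene *Plxnb2* rose by 2.40 log2 units (SE 0.220, p-adj = 1.44e-06), and the lipid phosphatase gene *Lpin1* fell by 1.32 log2 units (SE 0.101, p-adj = 2.68e-07).

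Between ImmAMs and RXR-deficient mAMs, 54 of the 98 genes (55.1%) were called, 13 higher and 41 lower, beside the 37.9% of all genes. Without the cell cycle list the count was 39 of 82 (47.6%). The regulators had 2 higher and 8 lower, the arrest targets 2 and 6, the apoptotic targets 3 and 6, the repair genes 1 and 2, and the metabolic targets 5 and 4. Between RXR-deficient and control mAMs, 8 of the 98 were called (8.16% beside 4.84%), and 3 with all 11 libraries. Those 3 were higher in RXR-deficient mAMs, *Cdkn2a* by 2.44 on the log2 scale (SE 0.358), the vitamin B1 transporter gene *Slc19a2* by 0.58 (SE 0.139) and the death receptor gene *Fas* by 0.56 (SE 0.142). The call of *Cdkn2a* was made in all 14 alternatives and all 10 fits without 1 library, and its change was 1.45 with 1 CPM added. These fits give it no independent support, because it passed the filter only through the RXR-deficient groups. Those of *Slc19a2* and *Fas* were lost in 8 of these 10 fits each (p-adj up to 0.120 and 0.137), and *Fas* overlapped with the controls. *Cdkn2a* was at 6.02, 2.32 and 2.85 CPM in RXR-deficient mAM replicates 1 to 3 and at 11.4 CPM in replicate 4, above every control library. The 5 genes called only without replicate 4 were *Polk*, higher by 0.46 log2 units (SE 0.108), and, all lower, the phosphatase gene *Ptp4a3* (log2 fold change −1.86, SE 0.409), the replicative helicase gene *Mcm5* (log2 fold change −0.82, SE 0.187), the pro-apoptotic gene *Siva1* (log2 fold change −0.80, SE 0.201) and the glutathione peroxidase gene *Gpx1* (log2 fold change −0.40, SE 0.0915). Of the 10 fits without 1 library, the call of *Siva1* held in 2, those of *Polk* and *Gpx1* in 4 each and those of *Ptp4a3* and *Mcm5* in 6 each. Replicate 4 had 15.6 CPM of *Polk*, 2.96 of *Ptp4a3*, 34.2 of *Mcm5*, 8.64 of *Siva1* and 590 of *Gpx1*. *Ptp4a3* had only 17 to 63 reads in RXR-deficient mAM replicates 1 to 3. The lists were drawn up with results of these libraries known, so the counts of list genes called are no independent evidence of a direction.

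**Figure D3:**
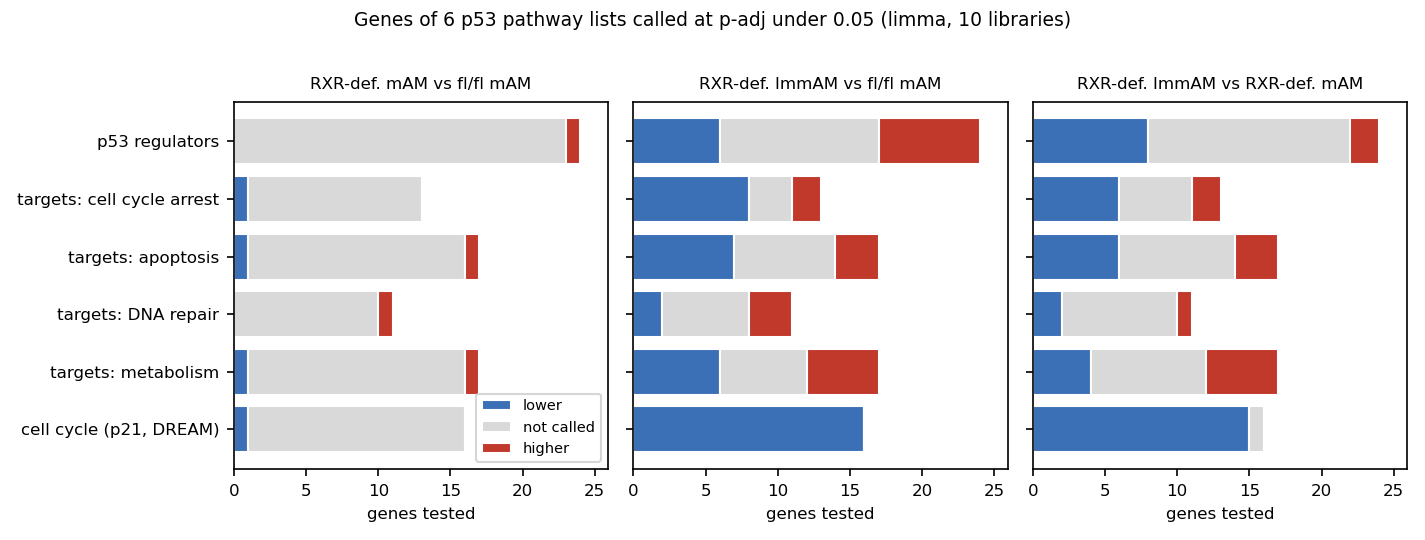
Number of genes tested (x axis) in each of the 6 p53 pathway lists, split into those called lower, not called and called higher at p-adj under 0.05 in the 3 comparisons. The cell cycle list is called lower in 16 of 16 genes between ImmAMs and control mAMs and in 1 of 16 between RXR-deficient and control mAMs, and the other lists hold calls in both directions in ImmAMs.

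Likeness of profile was measured as the root mean square difference between the log2 CPM of *Phlda3* and of another gene over the 11 libraries, each centred on its own mean, for the 9958 genes that averaged 5 CPM or more. Among the closest were *P2ry2* (0.257), *Rhof* (0.260), *Tpbgl* (0.267) and *Dnah11* (0.270). *P2ry2*, a receptor for extracellular nucleotides, had 71.9–92.8 CPM in control mAMs, 43.0–64.3 CPM in RXR-deficient mAMs and 12.5–15.6 CPM in ImmAMs. All 4 had the same order of the 3 populations, without overlap between them, which their choice by likeness to *Phlda3* in these same libraries largely set in advance. None of the 8 other genes of the set was near this profile. The closest was *Sesn2*, at rank 2980 with a difference of 1.03, and the farthest were *Cdkn1a* (rank 9025, 1.44) and *Zmat3* (rank 9143, 1.47). These ranks describe 11 libraries of 3 populations and carry no test.

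**Figure D4:**
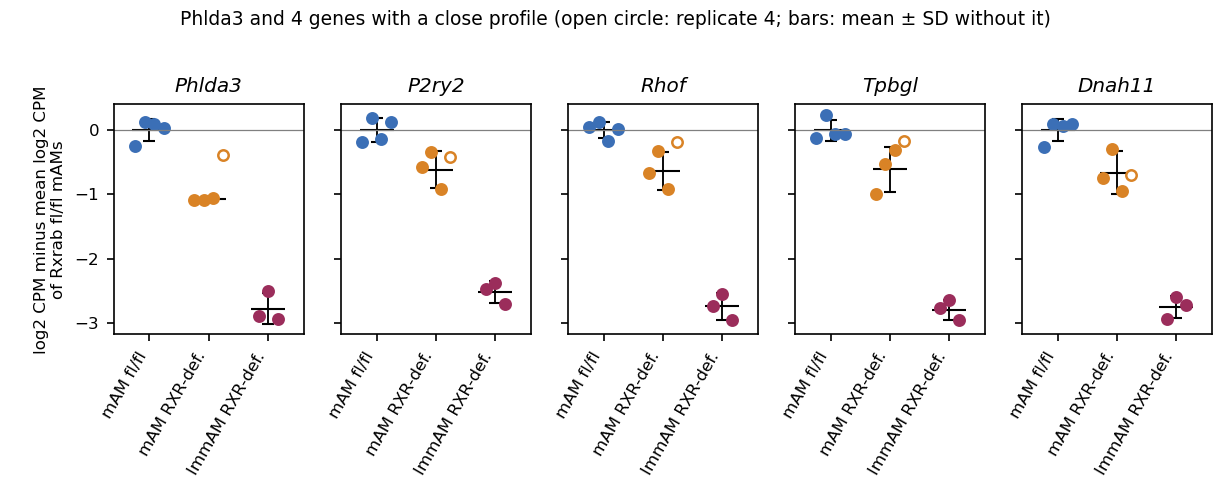
Log2 CPM relative to the mean of control mAMs (y axis) for Phlda3 and 4 genes with a close profile, with each library as a point, replicate 4 as an open circle, and mean and SD of the others as bars. The ImmAM libraries of all 5 genes lie lowest, and in Phlda3 replicates 1 to 3 of RXR-deficient mAMs lie close together with replicate 4 above them.

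The 9 genes are all protein coding and were found in GENCODE vM21 on GRCm38. *Trp53* lies at chr11:69580359-69591873, *Mdm2* at chr10:117688875-117710758, *Cdkn1a* at chr17:29090976-29100727, *Phlda3* at chr1:135766119-135769136 and *Ccng1* at chr11:40748552-40755311. *Zmat3* lies at chr3:32334792-32366014, *Trp53inp1* at chr4:11156431-11174379, *Sesn2* at chr4:132492032-132510501 and *Aen* at chr7:78895854-78911209. Between 0% and 2.20% of the 60-base windows of their transcripts also occur in transcripts of other genes, so few reads of the length used here could belong to a copy elsewhere.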

How the data were processed

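RNA of 40000 sorted cells per library was sequenced as single-end reads of 60 bases. The authors ran Cutadapt, aligned to the GRCm38 transcriptome (release 99), estimated gene counts with RSEM 1.3.1, required 1 CPM in 3 or more samples and normalized with TMM in limma. Their deposited values are TMM-scaled CPM. A value is the read number plus 0.5, times a constant of its library, and 100% of the values in all libraries gave back whole reads to within 0.01 of a read.

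Log2 of the deposited CPM, with no further pseudocount, was fitted in limma 3.58.1 (R 4.3.3; eBayes with a variance trend) in 1 model of 10 libraries with 3 group means, over the 12889 genes that reached 1 CPM in 3 or more libraries. Tests were two-sided. P-values were adjusted by the Benjamini-Hochberg method across these genes and called under 0.05. RXR-deficient mAM replicate 4 entered an alternative fit of all 11 libraries. *Phlda3*, and every gene of the set between RXR-deficient and control mAMs, got no p because the choice of the set used them. For the latter comparison the number of genes under the threshold is printed only beside the share or the number of all genes. Reads per library ranged from 16659960 to 37873532, and the limit given for a count of 0 covers counting error only.

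The genes of the set, the 6 pathway lists and the marker lists were chosen with earlier results of these data known. Every gene of the set is named. From each pathway list, up to 3 genes are named, those called between ImmAMs and control mAMs with the largest change, 5 CPM or more on average in the higher of both groups and libraries that do not overlap. Also named are list genes called between RXR-deficient and control mAMs, the 5 genes closest to *Phlda3*, of which 1 is not reported here, and *Rxra* and *Rxrb*. The alternatives changed the libraries (all 11, 1 left out at a time), the offset (0.5 or 1 CPM added before log2), the filter (none, or 5 CPM), the scaling (median ratio, or TMM omitted), the samples fitted (2 groups), the variance model (no trend), the covariates (replicate number as a block, *Xist*) and the tool (edgeR 4.0.16, DESeq2 1.42.0 and limma-voom on the recovered reads). The fits were tested on simulated data. Promoter windows are the 250 bases before RefSeq starts on GRCm38.p6.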

Additional observations from a re-analysis of the deposited data

Results flagged for a closer look

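Among 68 checks for a library that stands apart in a group of 4, 5 were positive, and chance gives about 1 in 20. RXR-deficient mAM replicate 4 accounts for 3 of them. It had 58.67 CPM of *Mdm2* where replicates 1 to 3 had 72.3–74.8, 80.16 CPM of *Phlda3* where they had 49.8–50.7, and 4.376 CPM of *Gadd45a* where they had 2.23–2.52. Control mAM replicate 3 had 1.22 CPM of *Gadd45a* where the other controls had 3.36–3.55. RXR-deficient mAM replicate 1 had 43.97 CPM of *Xpc* where the other replicates had 38.1–38.9.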

How the results depend on the processing

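The 4 calls of *Mdm2*, *Cdkn1a*, *Zmat3* and *Trp53inp1* between ImmAMs and control mAMs were made in all 14 alternatives and all 10 fits without 1 library. Between ImmAMs and RXR-deficient mAMs, 3 calls became 1 with a replicate block (*Ccng1* p-adj = 0.0855, *Zmat3* p-adj = 0.0981), and 1 to 3 without 1 library (1 without ImmAM replicate 3). Same-numbered libraries correlated at −0.129 to 0.0590 over 8 pairs, and the 25 other pairs at −0.154 to 0.208. Most of the 8 join different strains. Within the deleted strain, ImmAM and mAM replicates 2 correlated at 0.0590 and replicates 3 at −0.0333. These are too few pairs to settle whether equal numbers share mice. Scaling moved the median of all genes by at most 0.016. Between RXR-deficient and control mAMs, 4 members below the threshold became 2 without a variance trend and 7 with DESeq2. Of all genes, 624 became 122 and 1368 in the same fits. Without 1 library, 3 to 4 members were below it, beside 162 to 861 of all genes, and nothing is read from these counts. In this comparison, 8 list genes became 3 with all 11 libraries, 1 each with only the 2 groups compared, without a variance trend and with a replicate block, and 5 with limma-voom. Without 1 library they were 2 to 10, and 2 to 5 without any library other than RXR-deficient mAM replicate 2 or control mAM replicate 1. The 624 genes called became 337 with all 11 libraries, 195 with only the 2 groups, 122 without a variance trend, 1368 with DESeq2, 174 with a replicate block, and 162 to 861 without 1 library. They were 162 to 397 without any library other than RXR-deficient mAM replicate 2, control mAM replicate 1 or ImmAM replicate 3. Direction turned only for differences that passed no test. *Aen* between ImmAMs and RXR-deficient mAMs (−0.00) was 0.0267 with all 11 libraries, 0.0142 with median-ratio scaling, 0.00382 without TMM, 0.0186 in edgeR, 0.0214 in DESeq2, 0.0332 in limma-voom, 0.0175 with the replicate block and −0.118 to 0.0673 without 1 library. *Aen* between ImmAMs and control mAMs was −0.00685 with *Xist* as a covariate and −0.0868 to 0.0913 without 1 library, and between RXR-deficient and control mAMs −0.0359 to 0.122 without 1 library. *Trp53inp1* between ImmAMs and RXR-deficient mAMs was 0.0618 with all 11 libraries and −0.137 to 0.0653 without 1 library. Without 1 library, *Ccng1* between ImmAMs and control mAMs was −0.189 to 0.00392 and *Sesn2* between RXR-deficient and control mAMs −0.00509 to 0.0981. The cause of these shifts was not tested.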
